A study of Homo sapiens with 6 samples.

Results

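MDH1 and LDHB are human genes known for stop codon readthrough, and both were looked up by symbol in the deposited tables of a ribosome profiling experiment. MDH1 encodes cytosolic malate dehydrogenase and LDHB encodes the B subunit of lactate dehydrogenase. The 2 genes are 2 of the 8121 genes in the table of translational efficiency. Of these 2, MDH1 is also among the 9570 transcripts in the table of ribosome occupancy, and the occupancy of LDHB was not analysed here. The experiment was performed in HEK293, a human embryonic kidney cell line, which the labels place under a control siRNA in all 6 samples. These are 3 libraries of ribosome-protected fragments (RPFs) and 3 of total RNA, each numbered 1 to 3. According to the methods, living cells were treated with cycloheximide, which halts elongating ribosomes, before they were washed and lysed in its presence. There is 1 condition, so the values describe levels in 1 cell line. The methods say that the procedure was carried out in triplicate, but neither they nor the labels say whether the replicates were separate cultures, so p-values measure only the spread between these samples.

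A ribosome normally ends translation when a stop codon enters its A site and a release factor frees the protein. In readthrough, a near-cognate tRNA decodes the stop codon instead, and the ribosome goes on in the same frame to the next stop codon. A TGA stop codon followed by CTA is a known readthrough context in mammals. The extensions of MDH1 and LDHB are known to end in a peroxisomal targeting signal, by which a small share of each enzyme is carried into peroxisomes, where the pair can regenerate NAD+. Cytosolic MDH1 otherwise serves the malate-aspartate shuttle, and LDHB interconverts lactate and pyruvate.

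The sequences at the stop codons are shown first because they are what the members have in common. Each runs 5′ to 3′ along the mRNA strand in GRCh37, with 6 bases before the stop codon, and capitals mark the stop codon with the next 3 bases. The last 3 bases of the LDHB line are its second stop codon.
MDH1: tctgccTGACTAgacaatgatgttactaaa
LDHB: gacctgTGACTAgtgagctctaggctgtag
CGGBP1: gattgtTGACTAggaggttaccaccattgt
MDH2: ctgaagTGAGCCgctgtgacgggtggccag
LDHA: caatttTAAAGTcttctgatgtcatatcat
MDH1 and LDHB have the same 7 bases from the stop codon on, TGACTAG, whereas their paralogs MDH2, the mitochondrial malate dehydrogenase, and LDHA, the A subunit of lactate dehydrogenase, do not.

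The MDH1 window lies at chr2:63834113-63834142 on the plus strand. Its stop codon, at 63834119 to 63834121, is in exon 9 of 9, and an extension of 18 codons separates it from a second TGA at 63834176 to 63834178. The LDHB window lies at chr12:21788455-21788484 on the minus strand. The LDHB stop codon, at 21788476 to 21788478, is in exon 8 of 8, and its extension of 6 codons ends at a TAG at 21788455 to 21788457. Both extensions are 3′UTR of the standard mRNA. GENCODE also annotates a form of each gene whose CDS runs through the first stop codon, with 353 codons in MDH1-215 and 341 codons in LDHB-211. The other 3 windows lie at chr3:88104602-88104631 on the minus strand for CGGBP1, chr7:75695720-75695749 on the plus strand for MDH2 and chr11:18428820-18428849 on the plus strand for LDHA.

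In-frame reads of MDH1 lay along the whole part of the CDS that its longer annotated forms share. Occupancy in the deposited table is the number of in-frame RPFs at a codon, normalized for library size and divided by the TPM of the transcript, a measure of mRNA abundance, with the replicates combined. Because each value is a sum of whole reads from 3 libraries, the reads behind the MDH1 values could be recovered exactly, to a relative tolerance of 2e-14. MDH1 had 30136 in-frame reads, of which 30088 lay in the CDS and 2 in the 55 codons of the 5′UTR. Its mean occupancy was 0.0950 over the 322 CDS codons left after 15 were set aside at each end. This mean was higher than that of 75.4% of 5292 transcripts with at least 1000 in-frame CDS reads, whose median was 0.0571. The level and its rank depend on the TPM of the deposited form, whereas nearly all reads lie in sequence shared with a shorter form. The median over the MDH1 codons was 0.0355, and 39 codons of the CDS had no read. These occupancies carry no replicate error because the authors combined the replicates.

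The reads were spread unevenly along the MDH1 CDS. Codon 97, an AAA, held 1425 reads, which is 16.9 times the mean and 4.74% of all CDS reads. Next to it, codon 96, a TTC, held 1359 reads, and codon 275, an ATC, held 1227. The last sense codon had 64 reads and the stop codon had 2.

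**Figure D1:**
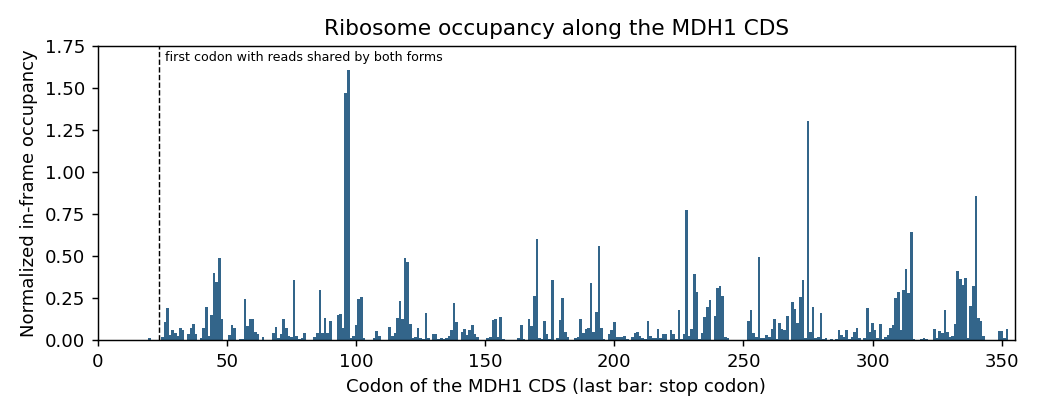
Normalized in-frame ribosome occupancy (vertical axis, authors' values with replicates combined) at each codon of the MDH1 CDS (horizontal axis), with a dashed line at codon 24. Occupancy is near 0 before the line and peaks at codons 96, 97 and 275.

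Few reads came from the start of the deposited MDH1 transcript. The table uses a form of 352 codons, and GENCODE also holds a form of 334 codons with another first exon. The sequence of both is shared from base 57 of the longer CDS, so that codon 24 is the first whose whole read lies in shared sequence, given the offset of 13 nt. Codons 1 to 23, whose reads hold bases of the first exon of the longer form, had 32 reads, and their mean occupancy was 1.48% of the CDS mean. From codon 24 to codon 352 there were 30054 reads, with a mean occupancy of 0.0985. The reads of that stretch, and those of the extension, cannot be assigned to 1 of these forms.

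After the MDH1 stop codon, in-frame reads continued up to the second stop codon and then nearly ended. The extension of 18 codons held 45 reads (exact Poisson 95% interval 32.8 to 60.2), or 2.50 reads per codon. The second stop codon had 0 reads, and the 60 codons after it had 1 read, at codon 57 after the first stop codon, or 0.0167 reads per codon. Expressed against the CDS mean, occupancy was 2.85% in the extension (2.08% to 3.82%). Against the median CDS codon, which is lower than the mean, it was 7.64%, so the size of the percentage depends on the CDS measure. After the second stop codon it was 0.0154% (0.000389% to 0.0857%). The intervals do not overlap. They cover counting error only, and the deposited table has no other reading frame that could serve as a background.

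The reads of the MDH1 extension fell on 11 of its 18 codons, in a pair of clusters. Codon 1, a CTA, held 3 reads and codon 2, a GAC, held 12, the highest number in the extension. Codons 3, 4 and 5 held 1, 5 and 2 reads. A single read lay at codon 9. Codons 12 to 15 then held 2, 6, 7 and 5 reads, and codon 17 held the last one. Over codons 1 to 5 the occupancy was 5.18% of the CDS mean, from 23 reads, and over codons 6 to 18 it was 1.96%, from 22 reads. Reads were thus present in both the first and the later codons of the extension.

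**Figure D2:**
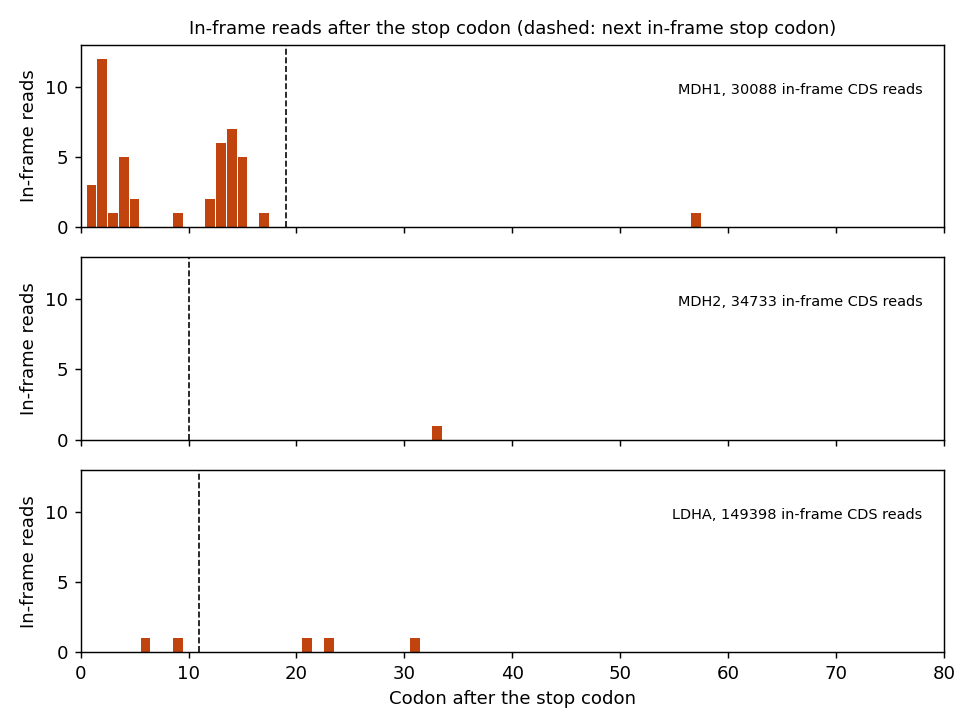
In-frame reads recovered from the deposited occupancy (vertical axis) at each of the first 79 codons after the stop codon (horizontal axis) of MDH1, MDH2 and LDHA, with a dashed line at the next in-frame stop codon. MDH1 has 45 reads before the line and 1 after it, MDH2 has 0 before it and LDHA has 2.

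The post-stop reads of MDH1 were found in all 3 libraries. A read is worth a different amount of occupancy in each library, which sorts the MDH1 reads into 3 sets. The table does not name the libraries, and the sets were not matched to replicate numbers here. The set with a worth of 0.000876 per read held 12647 CDS reads and 19 extension reads, and its extension stood at 2.86% of CDS reads per codon (1.72% to 4.47%). In the set with a worth of 0.00104 there were 10448 CDS reads and 15 extension reads, or 2.70% (1.51% to 4.46%). The set with a worth of 0.00149 had 6993 CDS reads and 11 extension reads, or 3.0% (1.50% to 5.37%). The 3 percentages lie within each other's intervals.

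**Figure D3:**
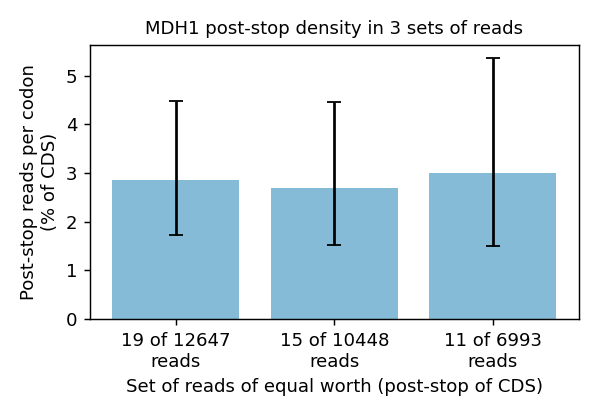
Reads per codon in the MDH1 extension as a percentage of reads per codon in the CDS (vertical axis), for the 3 sets of reads of equal worth (horizontal axis, with extension and CDS reads), with exact Poisson 95% intervals as bars. The percentages run from 2.70 to 3.0.

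The paralogs, which lack the TGACTA context, had far fewer post-stop reads. MDH2 had more CDS reads than MDH1, 34733, and 0 reads in its extension of 9 codons, which allows up to 3.69 reads or 0.388% of CDS reads per codon. The whole interval of MDH1, from 2.07% by reads, lies above that limit. LDHA had 149398 CDS reads and 2 reads in 10 codons, or 0.0431% (0.00523% to 0.156%), so that its interval also lies below that of MDH1. For LDHC, the testis form of lactate dehydrogenase, 0 reads in 4 codons beside 2462 CDS reads allow up to 12.0%, and a difference from MDH1 was not detectable at this depth. The LDHA values are uncertain, because 49.3% of the 30-mers of its CDS and 27.3% of those that end in its extension or second stop codon also occur in transcripts of other genes. For MDH1 these shares were 2.43% in the CDS and 0 of 57 for those that end after the stop codon.

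Among all mRNAs the MDH1 percentage was high but not extreme. In the comparison with 5292 transcripts with at least 1000 in-frame CDS reads, 5121 had a lower percentage than MDH1 and 170 a higher one, so MDH1 lay above 96.8% of them. Most transcripts (3847) had no read in the extension. Of the 170 transcripts above MDH1, 154 had fewer extension reads than its 45, and 141 had under 20. When the 202 transcripts whose post-stop codons lie in another annotated CDS of the same gene were left out, except for MDH1 itself, whose codons lie in that of MDH1-215, it lay above 97.1% of 5091. Over the first 5 codons after the stop codon it lay above 97.8% of the 5292. Among the 2544 with an extension at least as long, it lay above 98.2% over codons 1 to 5 and above 96.1% over codons 6 to 18.

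A drop in occupancy at the second stop codon was not particular to MDH1. In MDH1 the occupancy per codon after the second stop codon was 0.539% of that in the extension. Of 65 transcripts with at least 20 extension reads and at least 20 codons after the second stop codon, 19 others had as low a ratio or a lower one, and the median was 1.98%. The 65 were selected by reads in the extension, the denominator of the ratio. This selection favours a low ratio, so the median is not a neutral reference. In 28 of the 65 the post-stop percentage was higher than in MDH1.

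**Figure D4:**
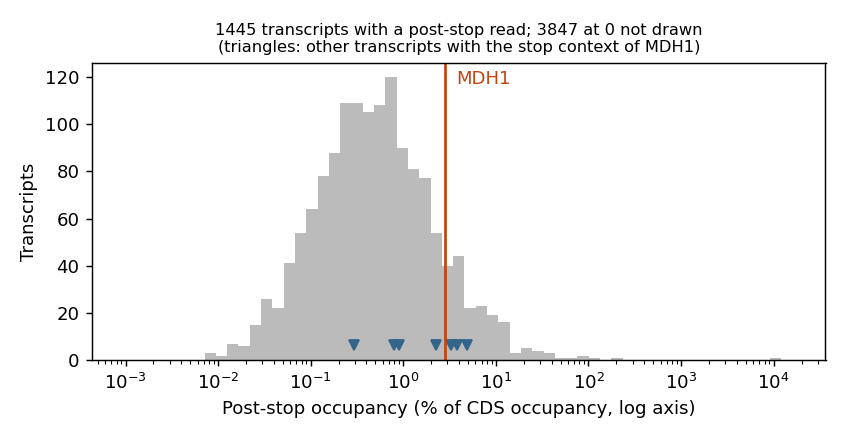
Number of transcripts (vertical axis) by post-stop occupancy as a percentage of CDS occupancy (horizontal axis, log scale), for the 1445 of 5292 transcripts with a post-stop read. The line marks MDH1 at 2.85%, and triangles mark the 7 other transcripts with its stop context and a post-stop read, of which 3 lie to its right.

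The stop context of MDH1 and LDHB is rare. It was read at the stop codon on the mRNA strand only. TGACTA was found in 22 of 8695 transcripts with a single matched sequence (0.253%) and TGACTAG in 4 (0.0460%), a count that does not hold LDHB. Besides MDH1, the latter are CGGBP1, DUS4L and VDR, and DUS4L and VDR had too few reads for the comparison. CGGBP1, which encodes a protein that binds CGG repeats, had 2449 CDS reads and 10 reads in an extension of 30 codons. This was 2.59% of CDS reads per codon (1.24% to 4.76%), and the interval holds the MDH1 value. The 1171 codons after the second stop codon of CGGBP1 had 3 reads.

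Of the 12 transcripts with TGACTA and at least 1000 CDS reads, 5 had a post-stop occupancy of at least 1% of the CDS, or 41.7%, and 4 of 11 when MDH1 was left out, or 36.4%. Over all transcripts 432 of 5292 did, which is 8.16%, and 228 of the 2470 with a TGA stop codon, which is 9.23%. These shares were not matched to the 12 for depth or extension length. At low depth 1 read can be enough to pass 1%, as in PAN2. The median was 0.855% for the 12 transcripts and 0 for all transcripts. APH1A, a subunit of gamma-secretase, had the highest value of the 12 at 4.82%, which rests on 4 reads. HPS6 (3.84%, 2 reads) and PAN2 (3.27%, 1 read) rest on fewer, and by reads per codon the intervals of all 3 hold the MDH1 value. LMAN1, a cargo receptor of the secretory pathway, had an estimated 16313 CDS reads and 0.296% from 2 reads. ZNF548, DUS2, TFAP4 and SHCBP1 had no post-stop read, with upper limits from 2.23% in TFAP4 to 69.2% in ZNF548, which has an extension of 2 codons. MDH1, with 45, had the most post-stop reads of the 12, but also the most CDS reads, an estimated 30191.

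Of a list of 20 other genes known for readthrough, 5 had enough reads, and 0 of the 5 reached 1% by occupancy, beside 8.16% of all transcripts, so that a count over so few genes says nothing about the list. AMD1, a decarboxylase of polyamine synthesis, had 26 reads in an extension of 127 codons. This was 0.558% by occupancy and 0.479% of CDS reads per codon (0.313% to 0.702%), an interval below that of MDH1. DHX38, a helicase of splicing, had no post-stop read, which allows up to 1.25%, also below the MDH1 interval. For the other 3 genes a difference from MDH1 was not detectable at this depth. EDEM3 had 1 read, or 0.993% by occupancy and 1.09% by reads, with an upper limit of 6.08%, and 0 reads allow up to 7.90% in ACP2 and 2.26% in THG1L.

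Translational efficiency, in which RPFs are divided by total RNA, was above that of the median gene for both members. MDH1 had 0.731, 0.728 and 0.711 in replicates 1, 2 and 3, with a mean of 0.724 ± 0.0109 (SD, n = 3). LDHB had 1.73, 1.76 and 1.80, with a mean of 1.77 ± 0.0358 (SD, n = 3). Every LDHB value was higher than every MDH1 value. The median over genes was 0.385, and 71.5% of genes had a lower mean than MDH1 and 90.0% a lower mean than LDHB. On the log2(value + 0.01) scale MDH1 lay 0.90 ± 0.05 (SE) above the median of all values (limma, adjusted p = 2.78e-05), and LDHB lay 2.18 ± 0.05 (SE) above it (limma, adjusted p = 2.12e-06). Of all 8121 genes, 44.7% were called above the median and 44.6% below it, so a call is common in this comparison. The LDHB ratio is uncertain, because 92.9% of its CDS 30-mers also occur in transcripts of LDHBP1, LDHBP2 or an unnamed gene. The sources used here do not say how the authors treated such reads.

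The members were compared with each other and each with its main paralog, in 3 pairs, with a two-sided exact permutation test on the log2 scale. The smallest p that 3 values against 3 allow is 0.10, and all 3 pairs gave it (0.10 after adjustment over the 3 pairs). MDH1 had 0.410 of the ratio of LDHB, a log2 difference of -1.28 ± 0.05 (SD over replicates), and was lower in all 3 replicates. MDH2 had 1.46, 1.41 and 1.33, with a mean of 1.40 ± 0.0673 (SD, n = 3), 1.93 times that of MDH1. LDHA had 0.940, 0.992 and 1.07, with a mean of 1.00 ± 0.0637 (SD, n = 3). The LDHB mean was 1.77 times that of LDHA. In each pair all values of 1 gene lay above all values of the other, and the difference was larger than the spread between replicates. That spread does not cover errors from reads shared with other genes. Of the CDS 30-mers, 92.9% in LDHB and 49.3% in LDHA also occur in transcripts of other genes, so the pairs with LDHB are uncertain.

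**Figure D5:**
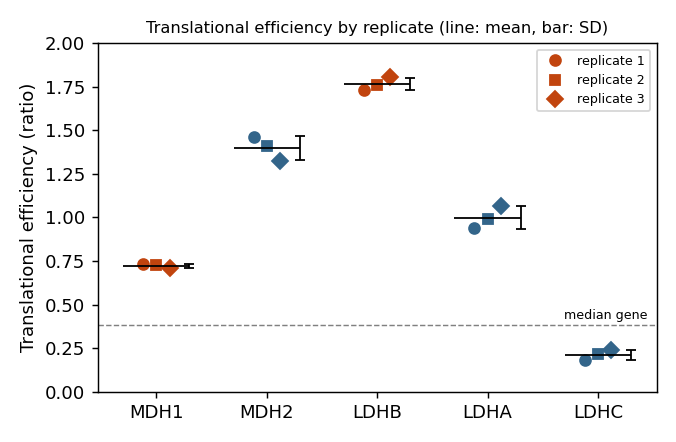
Translational efficiency (vertical axis, ratio of RPFs to total RNA) of MDH1, MDH2, LDHB, LDHA and LDHC in replicates 1 to 3 (points), with the mean (line) and SD (bar), and the median gene as a dashed line. LDHB is highest at 1.77, then MDH2, LDHA and MDH1, while LDHC lies under the median gene.

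In order of the mean, LDHB was followed by MDH2, LDHA, MDH1, LDHC at 0.212 ± 0.0293 (SD, n = 3) and UEVLD, which holds a lactate dehydrogenase-like domain, at 0.183 ± 0.0165 (SD, n = 3). Of these neighbours, LDHC and UEVLD overlapped between replicates, whereas no value of any other neighbouring pair did. Of the family list of 10 genes, 6 were in the table, both members among them. Of these 6, 4 were called above the median gene and 2 below it, beside 44.7% and 44.6% of all genes. The median of the 6 was 0.862.

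The genes around MDH1 in the malate-aspartate shuttle mostly had a higher ratio than MDH1. Of the 7 shuttle genes, which include MDH1 and MDH2, 5 were called above the median gene and 1 below it, and 1 did not pass the test. Over all genes, 44.7% were called above it and 44.6% below it. The aminotransferases GOT1 and GOT2 had means of 1.50 ± 0.0600 and 1.27 ± 0.0367 (SD, n = 3), and SLC25A13, an aspartate-glutamate carrier, had 1.62 ± 0.170 (SD, n = 3). The 2-oxoglutarate carrier SLC25A11 had 0.302 ± 0.0165 (SD, n = 3) and was called below the median gene. SLC25A12, the other aspartate-glutamate carrier, had 0.342 ± 0.104 (SD, n = 3; limma, adjusted p = 0.308). The median of the list was 1.27, beside 0.385 over all genes.

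Genes of peroxisomal import, the route that the extended enzymes are known to take, mostly lay on the other side of the median. Of 17 listed genes 12 were in the table, of which 2 were called above the median gene and 8 below it, and 2 did not pass the test. The shares over all genes were 44.7% above and 44.6% below. PEX5, the receptor of the targeting signal, had a mean of 0.0818 ± 0.00749 (SD, n = 3), and 4.59% of genes had a lower one. PEX14, its docking protein, had 0.329 ± 0.00629 (SD, n = 3). PEX3, which anchors PEX19 in the peroxisomal membrane, was the highest of the list at 1.68 ± 0.0617 (SD, n = 3). The list median was 0.279.

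Of the 7 listed genes of translation termination 6 were in the table, with 5 called above the median gene and 1 below it. Among all genes these shares were 44.7% and 44.6%. ETF1, which encodes the release factor eRF1, had 0.679 ± 0.0252 (SD, n = 3), and GSPT1, which encodes eRF3a, had 0.682 ± 0.0213 (SD, n = 3). ABCE1, which recycles ribosomes after termination, had 1.49 ± 0.0621 (SD, n = 3), and N6AMT1, the catalytic subunit of the methyltransferase of eRF1, had 0.290 ± 0.0212 (SD, n = 3). The median of the list was 0.681. Of the 20 genes known for readthrough 8 were in the table, with 3 called above the median gene and 5 below it, and a median of 0.268. Beside the same shares over all genes, counts over lists this short say little.

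The genes nearest to MDH1 over the 3 replicates in log2 translational efficiency were GPC6, NKRF and SRD5A3, at Euclidean distances of 0.0295, 0.0406 and 0.0412. Nearest to LDHB were SRSF3, MRPS16 and MRPS18C, at distances of 0.0496, 0.0513 and 0.0581. With 3 values per gene these distances mainly reflect the mean level.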

How the data were processed

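The authors removed adapters, PCR duplicates and unique molecular identifiers, set aside rRNA and tRNA reads and aligned RPFs to the hg19 transcriptome. RPFs of 28 to 30 nt were placed with an offset of 13 nt. The submitters' processing notes name cutadapt 1.16, Bowtie 1.1.2, TopHat2 2.1.1 and HTSeq 0.9.1. Per the deposited table, translational efficiency is a ratio of RPFs to total RNA per replicate, with no formula stated in the sources used here. Per the labels each total RNA sample was taken from the lysate of an RPF sample, and the ratio holds that pairing already. The authors' occupancy values combine the replicates. The study's methods state the mapped RPFs of each replicate, and the tables hold no library totals.

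In-frame reads were recovered as whole multiples of 3 read values per transcript, exactly for MDH1, MDH2, LDHA, LDHC and CGGBP1 and as estimates in the comparison of all transcripts. Percentages by reads for the other TGACTA transcripts and the readthrough genes also rest on recovered reads, with every value split into whole reads. Sequences came from GENCODE 44 lifted to GRCh37, and 9178 of 9570 transcripts matched by symbol and CDS length. Intervals are exact Poisson intervals at 95%. Each gene's translational efficiency was set against the median of all values with limma 3.58.1 (R 4.3.3), two-sided, after adding 0.01 and taking log2, with Benjamini-Hochberg adjustment over 8121 genes, a threshold of 0.05 and no filter. Pairs were tested in scipy 1.17.1. Scripts were tested on simulated data.

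The members and the 5 gene lists were chosen with earlier results of these data known. Named genes are the members, the lists, transcripts with TGACTAG and at least 1000 reads, the 3 genes nearest to each member and the 3 highest CDS codons. Other transcripts with TGACTA, and the ratio across the second stop codon, were chosen after values were seen.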

Additional observations from a re-analysis of the deposited data

How the results depend on the processing

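No alternative reversed a direction or moved a translational efficiency call of MDH1 or LDHB across the threshold. With a replicate block, in which each replicate's own median was removed, MDH1 lay 0.90 and LDHB 2.18 above the median on the log2 scale, and 7265 genes were called in place of 7249. Over all alternatives (a pseudocount of 0.1, the block, leaving out each replicate and a minimum mean of 0.05), MDH1 ranged from 0.77 to 0.92 (limma, adjusted p from 1.57e-05 to 0.000381) and LDHB from 1.95 to 2.18 (limma, adjusted p from 1.04e-06 to 4.73e-05). The log2 difference between MDH1 and LDHB ranged from -1.30 to -1.25 when each replicate was left out, and the exact paired test gave p = 0.25, the smallest it can give.

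The post-stop percentage of MDH1 depends on the window and on the CDS measure. It was 5.18% over the first 5 codons and 7.64% against the median CDS codon. It was 2.10% without the first 2 codons and 3.39% without the 1% highest CDS codons. Against the CDS from codon 24 on, an alternative chosen after seeing the data, it was 2.78%. MDH1 lay above 95.9% of 7364 transcripts with at least 200 reads, 98.1% of 2094 with at least 5000, and 97.8% over the first 5 codons. The restriction to post-stop codons in no other CDS was also chosen after seeing the data. The planned post-stop percentage and rank of LDHB, with their alternatives, gave no value, since its occupancy was not analysed here.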

Other observations

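The 2 deposited measures order the family differently. Mean CDS occupancy, which is RPFs per codon and TPM with no replicate error, was 0.0950 for MDH1 and 0.0933 for MDH2, whereas the translational efficiency of MDH2 was 1.93 times that of MDH1. The MDH1 occupancy depends on the TPM of its deposited form, although most of its reads are shared with a shorter form. LDHC had the highest occupancy of the family members compared, at 0.338, beside 0.162 for LDHA, while its translational efficiency of 0.212 lay below the 1.00 of LDHA in every replicate. The LDHC occupancy rests on 2462 CDS reads, each worth 0.0389 to 0.0582 after division by its TPM. LDHA had 149398 CDS reads, each worth 0.000292 to 0.000491. The high LDHC rank thus depends on the TPM, and how densely the LDHC mRNA is translated was not tested. The cause of the different order was not tested.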
